A study of Arabidopsis thaliana with 12 samples.

Results

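The genes described here are those of the plastid and mitochondrial genomes of *Arabidopsis thaliana*, taken as every row whose Arabidopsis Genome Initiative (AGI) identifier starts with ATCG (plastid) or ATMG (mitochondrion). The expression tables of wild-type (WT) and *det1-1* seedlings in light and darkness held 91 plastid and 31 mitochondrial genes among 22318 genes. The tables of 4 genotypes in light held 92 and 26 among 22400. The second set added ATCG00230 and lacked 5 mitochondrial genes (ATMG00130, ATMG00140, ATMG00570, ATMG00830 and ATMG01350), so that 92 plastid and 31 mitochondrial genes were measured in at least 1 set. The rule uses the identifier alone and no measured value.

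RNA-seq was carried out on whole 5-day-old seedlings of the Columbia-0 ecotype, in 12 libraries that form 6 groups of 2 independently grown replicates, each library from about 12 pooled seedlings. WT and *det1-1*, a mutant of DE-ETIOLATED1 (a repressor of light-type development in darkness), were each grown under a 16 h light and 8 h dark cycle at 100 μmol per m2 per s (L) or in constant darkness (D). The insertion line *ubp22-1* (GABI_263H06), in the gene of a histone H2B deubiquitinase, and the *det1-1ubp22-1* double mutant obtained by crossing were grown in light only. RNA was poly(A)-enriched, and the reads were single 50-base reads. The values used are fold changes, standard errors (SE) and mean normalised counts per gene from 2 DESeq2 fits of 8 libraries each, which share the 4 light-grown WT and *det1-1* libraries. No value per library was held, so the n = 2 replicates of a group appear only as a group mean solved from those columns, and their spread only through the SE. The total of normalised counts per group ran from 2.42e+07 to 3.25e+07 in the first fit and from 2.87e+07 to 3.26e+07 in the second, and the depth of a single library is unknown.

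Plastids and mitochondria keep small circular-mapping genomes of bacterial descent. The plastid genome encodes core subunits of the photosystems, the large subunit of Rubisco, part of the plastid ribosome and the core of a bacterial-type RNA polymerase, which needs sigma factors made in the nucleus. A phage-type polymerase, also nuclear-encoded, transcribes the rest, and phage-type polymerases transcribe the plant mitochondrial genome. In darkness, seedlings form etioplasts, which turn into green chloroplasts once light is perceived. In both organelles of plants a poly(A) tail marks an RNA for decay, unlike in the cytoplasm, so that a count from a poly(A)-enriched library is a count of the fragments that this enrichment retained and not of total organelle RNA. In whole seedlings, fewer organelles or cells of a type and less RNA per organelle cannot be told apart. Levels are normalised counts with no correction for gene length, and are therefore compared between groups and not between genes.

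The identifiers were not paired with gene symbols by the tables or by the reference. Only those named by the annotation notes of similar nuclear genes are given a name here. Plastid identifiers given a name here are ATCG00430 (noted as photosystem II reaction center protein G), ATCG00530 (CemA-like proton extrusion protein-related), ATCG00660 (ribosomal protein L20) and ATCG00670 (plastid-encoded CLP P, the proteolytic subunit of the Clp protease), all of them measured. The plastid genes annotated in the reference include no *psbG*, the symbol for a photosystem II protein G. The name of ATCG00430 thus rests on the note alone, and its function was not tested. ATCG01310 (ribosomal protein L2) was not among the rows. Of 45 mitochondrial identifiers in such notes, all beside genes of nuclear chromosome 2, only 2 were measured, ATMG00560 (a nucleic acid-binding OB-fold-like protein) and ATMG01320 (NADH dehydrogenase 2B), and 43 were not among the rows.

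The starts of 3 plastid coding sequences are shown as examples of windows with 1 place and with 2 places in the assembly. Whether the number of places decided which members were counted was not tested. They were read from the RefSeq assembly TAIR10.1, each as the first 50 bases in the direction of the gene, with the first codon in capitals. The *clpP* and *rpl20* windows each occur at 1 place in the assembly, and the matching identifiers were measured. The *rpl2* window occurs at 2 places, 1 in each copy of the inverted repeat of the plastid genome, and its identifier was absent.
clpP, Pltd:71833-71882, minus strand: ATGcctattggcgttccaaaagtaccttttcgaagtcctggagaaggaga
rpl20, Pltd:68816-68865, minus strand: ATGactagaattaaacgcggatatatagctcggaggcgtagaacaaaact
rpl2, Pltd:85794-85843, minus strand, and Pltd:152806-152855, plus strand: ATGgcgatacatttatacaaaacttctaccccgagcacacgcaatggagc

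Across the whole reference, 64.6% of all 50-base windows of the plastid genome (154478 bases) occurred only once, and 2.43% also occurred in the nuclear chromosomes. In the mitochondrial genome (367808 bases) 28.9% occurred once and 70.6% also occurred in the nuclear chromosomes. By gene, 32 of 129 annotated plastid genes had no window that occurred once, among them all 7 ribosomal RNA genes, 15 of 37 transfer RNA genes and 10 of 85 protein-coding genes. Of the 69 annotated mitochondrial genes of at least 50 bases, 45 had no such window and 52 had at least 50% of their windows in a nuclear chromosome as well. The measured plastid identifiers jumped from ATCG00820 to ATCG01010, skipping 18 numbers of the usual spacing, and stopped at ATCG01130. Counting that drops reads with several places in the genome would leave such genes without counts, and the part of this in the missing identifiers was not tested. For windows shared with a nuclear chromosome, a mitochondrial and a nuclear read cannot be told apart.

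Both organelle genomes contributed a larger share of the normalised counts in dark-grown than in light-grown seedlings. In WT the plastid share in the first fit was 0.0406% in light and 0.223% in darkness, which is 5.49 times higher in darkness. In *det1-1* it was 0.0511% and 0.302%, or 5.91 times higher. For the mitochondrion, the WT share was 0.0210% in light and 0.279% in darkness, or 13.3 times higher, and the *det1-1* share was 0.0214% in light and 0.188% in darkness, or 8.80 times higher. These are ratios of group means of 2 libraries and carry no test of their own.

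A pair of genes made up most of the mitochondrial counts, whereas the plastid counts were spread over many genes. ATMG00020 and ATMG01390 together held 86.1% of the mitochondrial counts of light-grown WT and 94.0% of those of dark-grown WT. Their part in *det1-1* was 85.1% in light and 91.2% in darkness. Without them the mitochondrial share was 5.72 times higher in darkness in WT and 5.17 times higher in *det1-1*. The leading plastid gene held between 8.72% and 13.0% of the plastid counts of a group of the first fit.

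The plastid genes that took the most counts, which gene length also sets, changed with growth condition. In the first fit ATCG00020 led in both light-grown groups, with 950 normalised counts in WT and 2059 in *det1-1*. It was followed by ATCG00450 and ATCG00490 in WT and by ATCG00490 and ATCG00450 in *det1-1*. In the second fit the same WT libraries put ATCG00450 (920) before ATCG00020 (914). In WT (D), ATCG00340 (4970 counts), ATCG00490 (4875) and ATCG00350 (4593) led, and ATCG00020 stood at 868. In *det1-1* (D), ATCG00490 (10440), ATCG00120 (7258) and ATCG00280 (7051) led, with ATCG00020 next at 6247. Neighbours in these orders do not differ beyond the spread described next.

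**Figure D1:**
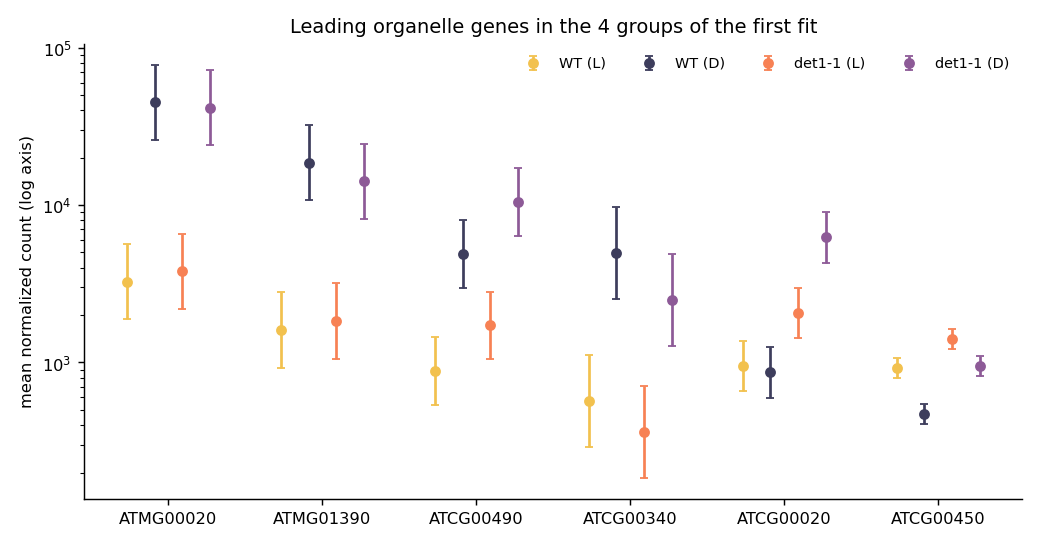
Mean normalised counts (log axis) of the leading plastid and mitochondrial genes in the 4 groups of the first fit. Each point is the mean of 2 libraries solved from the fitted columns, with bars of 1 SE from the dispersion of the gene. ATMG00020, ATMG01390, ATCG00490 and ATCG00340 sit higher in both dark-grown groups, while ATCG00450 is lower in darkness than in light in each genotype.

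The organelle genes were measured far less precisely than nuclear genes in the fit that holds the dark-grown libraries. Among genes with a mean of at least 50 normalised counts, the median dispersion (the squared coefficient of variation beyond counting error) was 0.781 for 72 plastid genes, 0.481 for 10 mitochondrial genes and 0.0166 for 17552 nuclear genes in the first fit. That is a coefficient of variation of 88.3%, 69.3% and 12.9% between replicates. In the second fit, all in light, the medians were 0.0652 for 41 plastid genes (25.5%), 0.0278 for 6 mitochondrial genes (16.7%) and 0.0121 for 17598 nuclear genes (11.0%). The dispersion was larger in the first fit for 41 of 41 plastid and 6 of 6 mitochondrial genes measured in both, by a median of 8.50 and 18.4 times, against 1.41 times for 17117 nuclear genes. The fits share the WT and *det1-1* libraries in light and differ in the remaining 4, which are dark-grown in the first. A fit gives each gene 1 dispersion for all its groups, so which library carries the extra spread cannot be seen.

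The spread differed between plastid genes as well. The dispersion was at least 0.5 in 55 of the 72, and under 0.05 in only 3 (ATCG00450, ATCG00630 and ATCG01020). A change of a given size was thus far easier to detect in those 3 genes than in most others.

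**Figure D2:**
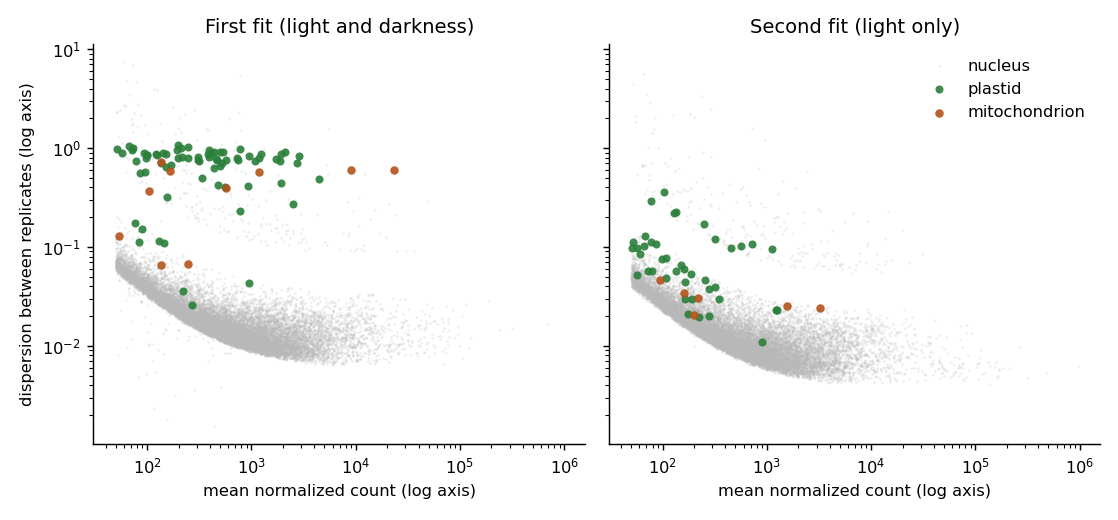
Dispersion between replicates against the mean normalised count of each gene with a mean of at least 50 (both axes log), in the first fit with dark-grown libraries (left) and in the second with light-grown libraries only (right). Most of the 72 plastid genes form a band above the nuclear genes on the left, at a median of 0.781, and lie lower on the right, at a median of 0.0652.

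The comparison of WT seedlings grown in light with those in darkness asks how the transcriptome changes when seedlings develop in light. 83 of 91 plastid and 30 of 31 mitochondrial genes had lower counts in light, with a median log2 fold change of -2.52 for the plastid and -1.92 for the mitochondrion, against 0.02 over all genes. Genes were called when the fold change was above 2 and the Benjamini-Hochberg adjusted p of a Wald test was under 0.01. By this rule 11 plastid and 11 mitochondrial genes fell and none rose, where 15.6% of all genes fell. The median SE of the log2 fold change was 1.27 for plastid and 1.12 for mitochondrial genes, against 0.22 over all genes. At an unadjusted Wald p under 0.05, 54 plastid genes were lower and 1 was higher, and 11 mitochondrial genes were lower, where 64.2% of all genes passed. The plastid share of 60.4% is near that background and the mitochondrial share of 35.5% is below it.

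The plastid genes that fell were ATCG00065, ATCG00070, ATCG00090, ATCG00120, ATCG00380, ATCG00520, ATCG00550, ATCG00560, ATCG00580, ATCG00670 and ATCG01120. ATCG00065 had 101 normalised counts in WT (D) and 3.65 in WT (L), a log2 fold change of -4.80 (SE 1.51, adjusted p = 0.0031 in the Wald test). ATCG00120, among the most abundant, had 3439 and 251 counts, 13.7-fold lower in light (SE 1.32 on the log2 scale, adjusted p = 0.0082). The group means of both lie over 10-fold apart. ATCG00670, the Clp protease subunit, had 1075 counts in darkness and 146 in light, a log2 fold change of -2.88 (SE 0.93, adjusted p = 0.0039). The smallest adjusted p belonged to ATCG00560, with 88.3 counts in darkness and 22.4 in light, a log2 fold change of -1.98 (SE 0.53, adjusted p = 0.00049). The log2 fold changes of the other 7 lay between -3.92 (ATCG00380) and -1.59 (ATCG00090). Their rank by adjusted p follows the SE as much as the size of the change.

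Several abundant plastid genes had fold changes of the same size without passing the threshold. ATCG00490, the plastid gene with the highest mean, had 4875 counts in WT (D) and 886 in WT (L), a log2 fold change of -2.46 with an SE of 1.01 (adjusted p = 0.026, Wald test). ATCG00340 and ATCG00350 had log2 fold changes of -3.12 (SE 1.37) and -3.61 (SE 1.35), with adjusted p of 0.038 and 0.014 in the same test. Other genes with a name were also lower in light without a call. ATCG00660 (ribosomal protein L20) had 142 counts in darkness and 13.0 in light, and ATCG00530 (CemA-like) had 613 and 138. ATCG00430, whose noted name has no matching symbol in the reference, had 176 and 37.7. At the spread of the first fit, none of these differences reached an adjusted p under 0.01 in the Wald test.

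A few plastid genes stood apart from the rest. ATCG00450 had 470 counts in WT (D) and 921 in WT (L), higher in light by 0.97 on the log2 scale (SE 0.30, adjusted p = 0.0029 in the Wald test), which is just under the 2-fold threshold. ATCG00630 (141 in darkness, 118 in light) and ATCG01020 (190 and 170) had log2 fold changes of -0.26 (SE 0.30) and -0.17 (SE 0.25). ATCG00190 (862 and 722) and ATCG00020 (868 and 950) also had similar means, with SEs of 0.70 and 0.76. Taken relative to the median of the plastid genes with a mean of at least 10, which was -2.54, 10 genes were higher than the rest by the same call (ATCG00010, ATCG00020, ATCG00080, ATCG00190, ATCG00220, ATCG00310, ATCG00410, ATCG00450, ATCG00630 and ATCG01020) and none was lower. In that setting 8143 of 22318 genes were called in either direction, with nuclear genes not recentred. Of the 10, ATCG00310 (mean 9.07) and ATCG00410 (6.52) lie below the minimum mean of 10, and ATCG00220 has a mean of 15.1. ATCG00450 stood 3.51 above the plastid median (SE 0.30) and ATCG01020 2.38 (SE 0.25). The error of the median is not part of these SEs, and replicates that vary together across the plastid genome are not treated as such by the test.

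In the mitochondrion, the 2 genes that dominate the counts fell in light. ATMG00020 had 45006 normalised counts in WT (D) and 3249 in WT (L), a log2 fold change of -3.79 (SE 1.12, adjusted p = 0.0016 in the Wald test). ATMG01390 had 18539 and 1606, or -3.53 (SE 1.12, adjusted p = 0.0034). ATMG00030 (2378 and 185, log2 fold change -3.69) and ATMG00080 (148 and 9.90, -3.90) had changes of similar size. The remaining genes that fell were ATMG00070, ATMG00160, ATMG00640, ATMG00650, ATMG01120, ATMG01360 and ATMG01380, with fold changes from 2.15-fold lower for ATMG00160 (168 and 77.9 counts) to 11.8-fold lower for ATMG00070. ATMG00640 had the smallest adjusted p, 0.0001 in the Wald test, with 80.2 counts in darkness and 15.1 in light. ATMG00060 had 207 and 150 counts, a log2 fold change of -0.46 (SE 0.39), and was not called. The named genes ATMG00560 and ATMG01320 had means near 3 counts and SEs of 1.88 and 1.75, too few counts to read a direction.

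**Figure D3:**
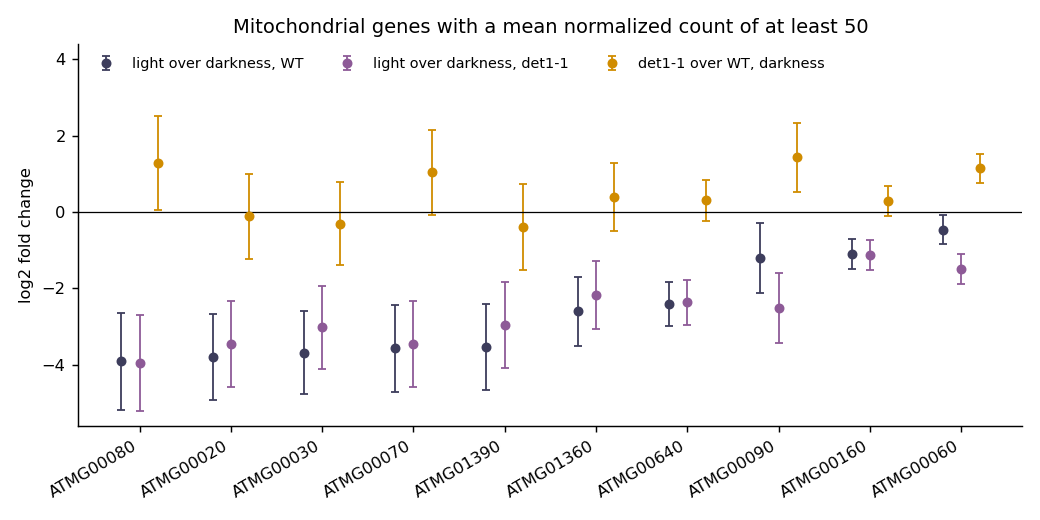
Log2 fold changes of light over darkness in WT and in *det1-1*, and of *det1-1* over WT in darkness, for the 10 mitochondrial genes with a mean of at least 50 normalised counts. Bars are 1 SE. All 10 light effects lie below 0 in both genotypes, and the *det1-1* effects in darkness lie on both sides of 0, with ATMG00060 the only one called.

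The comparison of *det1-1* with WT in darkness asks what the *det1-1* mutation changes in the absence of light. Without light, 84 of 91 plastid genes had higher counts in *det1-1* than in WT, with a median log2 fold change of 0.98 against 0.00 over all genes. 7 plastid genes rose and none fell, and 1 mitochondrial gene rose, where 14.4% of all genes rose. At an unadjusted Wald p under 0.05 there were 10 plastid genes and 1 mitochondrial gene, where 54.1% of all genes passed. The mitochondrial median was 0.41, with 23 of 31 genes above 0 and a median SE of 1.07.

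The plastid genes that rose were ATCG00020, ATCG00080, ATCG00220, ATCG00450, ATCG00550, ATCG00630 and ATCG01020. ATCG00020 had 868 counts in WT (D) and 6247 in *det1-1* (D), 7.20-fold higher (log2 2.85, SE 0.76, adjusted p = 0.00055 in the Wald test). ATCG01020 had 190 and 488 counts, a log2 fold change of 1.36 (SE 0.25, adjusted p = 2.4e-07), and ATCG00630 had 141 and 388, or 1.46 (SE 0.29, adjusted p = 2.6e-06). Both are among the 3 plastid genes with the smallest dispersion, and the third, ATCG00450, had 470 and 952 counts, or 1.02 (SE 0.30, adjusted p = 0.0023). ATCG00550 had 126 and 353 counts (1.49, SE 0.49). ATCG00080 and ATCG00220 had few counts, with 23.9 and 94.5 in the former and 5.42 and 35.2 in the latter. In the mitochondrion ATMG00060 rose from 207 to 458 counts, by 1.15 on the log2 scale (SE 0.38, adjusted p = 0.0072 in the Wald test).

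Many abundant genes were not separated between the genotypes in darkness. ATCG00120 had 3439 counts in WT (D) and 7258 in *det1-1* (D), a log2 fold change of 1.08 (SE 1.32), and ATCG00490 had 4875 and 10440 (2.14-fold, SE 1.01 on the log2 scale). ATMG00020 had 45006 and 41587 counts (-0.11, SE 1.12) and ATMG01390 18539 and 14182 (-0.39, SE 1.12). Adjacent identifiers ATCG00330, ATCG00340 and ATCG00350 were the plastid genes of highest mean with lower counts in *det1-1* (D), with log2 fold changes between -0.99 and -0.77 that did not pass the test. ATCG00330 had 834 counts in WT (D) and 488 in *det1-1* (D). Because 1 dispersion per gene is shared by light- and dark-grown groups, the calls were repeated with the extra spread placed on the dark-grown libraries alone. Only organelle genes measured in both fits were given this wider spread, and the SEs of nuclear genes were left unchanged. Then 4 plastid genes (ATCG00080, ATCG00220, ATCG00630 and ATCG01020) and no mitochondrial gene passed, where 5573 of 22318 genes were called in either direction. The adjusted p in the Wald test was 0.015 for ATCG00020, 0.013 for ATCG00450, 0.020 for ATCG00550 and 0.030 for ATMG00060.

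In *det1-1* seedlings the counts of organelle genes were again lower in light than in darkness. 88 of 91 plastid genes and 29 of 31 mitochondrial genes lay below 0, with medians of -3.02 and -2.13 against 0.05 over all genes. 22 plastid and 7 mitochondrial genes fell and none rose, where 11.8% of all genes fell. At an unadjusted Wald p under 0.05 there were 70 plastid genes (76.9%) and 14 mitochondrial genes (45.2%), where 57.2% of all genes passed. All 11 plastid genes that fell in WT also fell in *det1-1*, and the other 11 fell in *det1-1* alone by this threshold. In the mitochondrion 6 genes fell in both, 5 in WT alone and 1 (ATMG00060) in *det1-1* alone. These comparisons share no libraries, but both come from the first fit with 1 dispersion per gene. A gene with a small SE is thus easier to call in both, and the overlap over all genes was not counted.

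Among the largest changes were those of ATCG00510, with 145 counts in *det1-1* (D) and 4.22 in *det1-1* (L) (log2 fold change -5.10, SE 1.53, adjusted p = 0.0022 in the Wald test), and of ATCG00520, with 1264 and 50.9 (-4.64, SE 1.38). ATCG00660 (ribosomal protein L20) fell from 232 to 9.62 counts, 24.1-fold (SE 1.38 on the log2 scale, adjusted p = 0.0023), and ATCG00670 (Clp protease subunit) from 2243 to 254, 8.84-fold (SE 0.93, adjusted p = 0.0018). ATCG00130 had 3115 and 172 counts (18.1-fold lower, adjusted p = 0.0031). With the exception of ATCG00660 and ATCG00670, the role of these genes is not given by the annotation used.

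Genes that stood apart in WT did so again in part. ATCG00450 had 952 counts in *det1-1* (D) and 1412 in *det1-1* (L), a log2 fold change of 0.57 (SE 0.30, adjusted p = 0.10 in the Wald test). ATCG00190 had 871 and 661 (-0.40, SE 0.70). ATCG01020 fell from 488 to 228, 2.14-fold (SE 0.25 on the log2 scale, adjusted p = 3.7e-05), and ATCG00020 had 6247 and 2059 (-1.60, SE 0.76, adjusted p = 0.063). Relative to the median of the plastid genes in *det1-1*, which was -3.08, 6 genes were higher than the rest (ATCG00010, ATCG00190, ATCG00310, ATCG00450, ATCG00630 and ATCG01020), all of them among the 10 found in WT. In that setting 6112 of 22318 genes were called in either direction. Both results use the same dispersion per gene, and ATCG00310 has a mean of only 9.07. Relative to the mitochondrial median, 4 mitochondrial genes were higher than the rest in WT (ATMG00060, ATMG00160, ATMG00510 and ATMG00660) and none in *det1-1*.

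**Figure D4:**
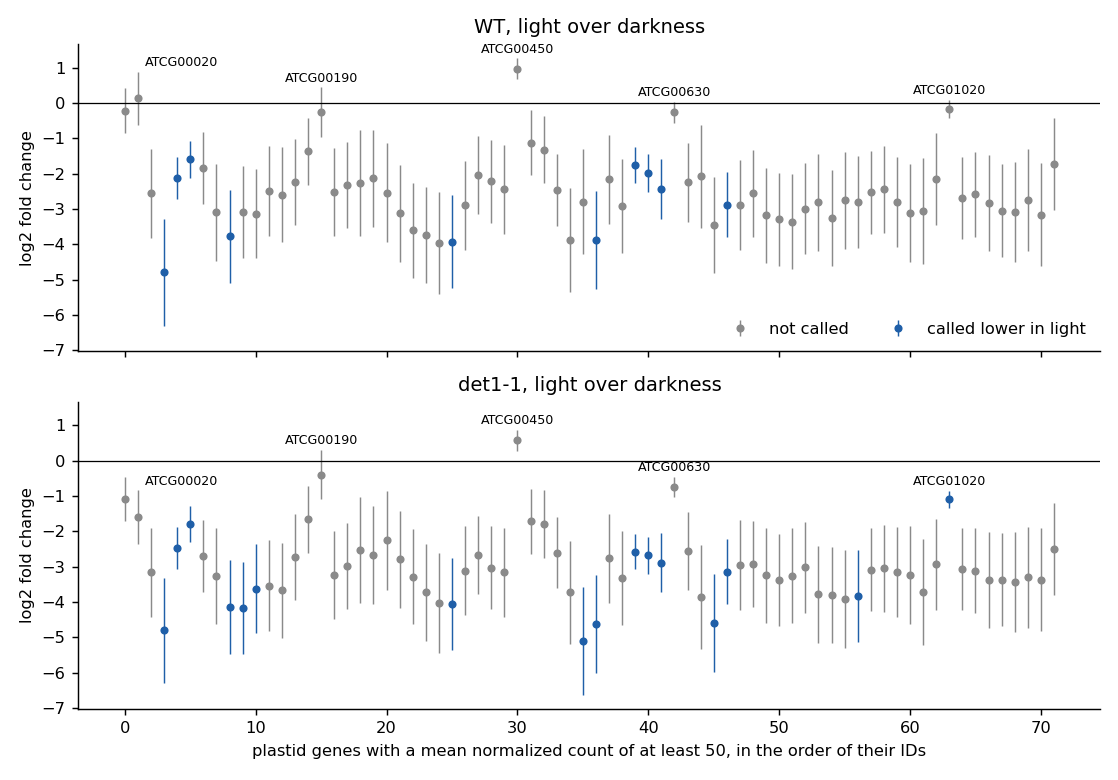
Log2 fold change of light over darkness for each of the 72 plastid genes with a mean of at least 50 normalised counts, in the order of their identifiers, in WT (top) and *det1-1* (bottom). Bars are 1 SE and blue points are genes called lower in light. 70 of the 72 genes lie below 0 in both genotypes, and ATCG00450 is the gene above 0 in both.

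In the mitochondrion of *det1-1*, ATMG00020 fell from 41587 counts in darkness to 3802 in light (log2 fold change -3.45, SE 1.12, adjusted p = 0.0050 in the Wald test). ATMG01390 had 14182 and 1832 counts and missed the threshold (-2.95, SE 1.12, adjusted p = 0.018). ATMG00060 fell from 458 to 162, 2.82-fold (SE 0.39 on the log2 scale, adjusted p = 0.00036), and ATMG00090 had 1346 and 235 counts (-2.52, SE 0.91, adjusted p = 0.012). The leading gene changed by a similar amount in both genotypes.

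The difference between the effect of *det1-1* in darkness and in light was tested directly as an interaction. Only ATCG00220 passed, a gene with a mean of 15.1 counts, where 15.7% of all genes passed in either direction. No mitochondrial gene passed, and at an unadjusted Wald p under 0.05 there were 3 plastid genes and no mitochondrial gene, where 34.9% of all genes passed. ATCG01020, with the smallest dispersion, had an interaction of 0.94 (SE 0.36, adjusted p = 0.035 in the Wald test). With a median SE of 1.79 for plastid and 1.59 for mitochondrial genes, a 2-fold difference between the genotypes in their light response was not detectable for most members, and the calls in 1 genotype alone given above are not shown to differ between genotypes.

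The comparisons of genotypes in light were read from the second fit, whose SEs for organelle genes were smaller. Few genes separated *det1-1* from WT in light. Of 92 plastid genes 69 lay above 0, with a median log2 fold change of 0.40 (median SE 0.56), and of 26 mitochondrial genes 24 lay above 0, with a median of 0.35 (median SE 0.96). 1 plastid gene, ATCG00020, rose, and no mitochondrial gene was called, where 3.54% of all genes were called in either direction. At an unadjusted Wald p under 0.05, 15 plastid genes were higher, and 2 mitochondrial genes passed, where 29.2% of all genes did. In the first fit none was called, where 3.21% of all genes were, and 4 plastid genes and 1 mitochondrial gene passed the unadjusted p, where 23.5% of all genes did.

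ATCG00020 had 914 normalised counts in WT and 1967 in *det1-1* in the second fit, 2.15-fold higher (log2 1.11, SE 0.22, adjusted p = 1.8e-05 in the Wald test). The same libraries gave 1.12 with an SE of 0.76 in the first fit (adjusted p = 0.40). The fold change was thus nearly the same in both fits and the call rests on the spread. ATCG00480 (625 and 1223 counts), ATCG00470 (194 and 372) and ATCG00630 (124 and 243) were higher by 0.97, 0.94 and 0.97 on the log2 scale, with adjusted p of 5.9e-08, 0.00045 and 0.00068 in the Wald test, just under the 2-fold threshold. The Clp protease subunit gene ATCG00670 had a log2 fold change of 0.78 (SE 0.27, adjusted p = 0.027). The ATCG00330 to ATCG00350 run lay between -0.67 and -0.51, below WT as in darkness, and again did not pass.

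In *ubp22-1* no organelle gene was called against WT, where 0.116% of all genes were. At an unadjusted p under 0.05 in the Wald test 3 plastid genes passed, 2 higher and 1 lower, and no mitochondrial gene, where 783 of 22400 genes passed, a share similar to that of the plastid genes. The median log2 fold change was -0.01 for plastid genes (SE 0.57) and 0.22 for mitochondrial genes (SE 0.99). ATCG00020 had 829 counts and ATCG00490 836, against 914 and 831 in WT. ATCG00450 had 1407 against 920 (0.61, SE 0.22, adjusted p = 0.68). In *det1-1ubp22-1* no organelle gene was called against WT either, where 2.26% of all genes were, and 5 plastid and no mitochondrial genes passed the unadjusted p, where 22.6% of all genes did. ATCG00480 had 952 counts against 625 (0.61, SE 0.16, adjusted p = 0.0025), below the fold threshold.

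The double mutant was also set against *det1-1* itself, where 0.0179% of all genes were called and no organelle gene. The Wald test at an unadjusted p under 0.05 passed 1 plastid gene, which was lower, and no mitochondrial gene, where 1.67% of all genes passed. 74 of 92 plastid genes lay below 0 (median -0.46, SE 0.80) and 25 of 26 mitochondrial genes (median -0.58, SE 1.38). ATCG00020 had 1303 counts in *det1-1ubp22-1* and 1967 in *det1-1*, a difference of -0.59 (SE 0.32). ATMG00020 had 2574 and 3812, or -0.57 (SE 0.32), and ATMG01390 1255 and 1820, or -0.54 (SE 0.33). The 6 mitochondrial genes with a mean of at least 50 counts lay between -0.60 and -0.54. No gene passed the test, and genes of 1 organelle share their libraries and are not replicates. The SE of this comparison is overstated, because both fold changes contain the WT libraries. With an SE solved from the variances of the 2 mutant groups alone, 15 of 22400 genes were called in place of 4, and again no organelle gene.

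**Figure D5:**
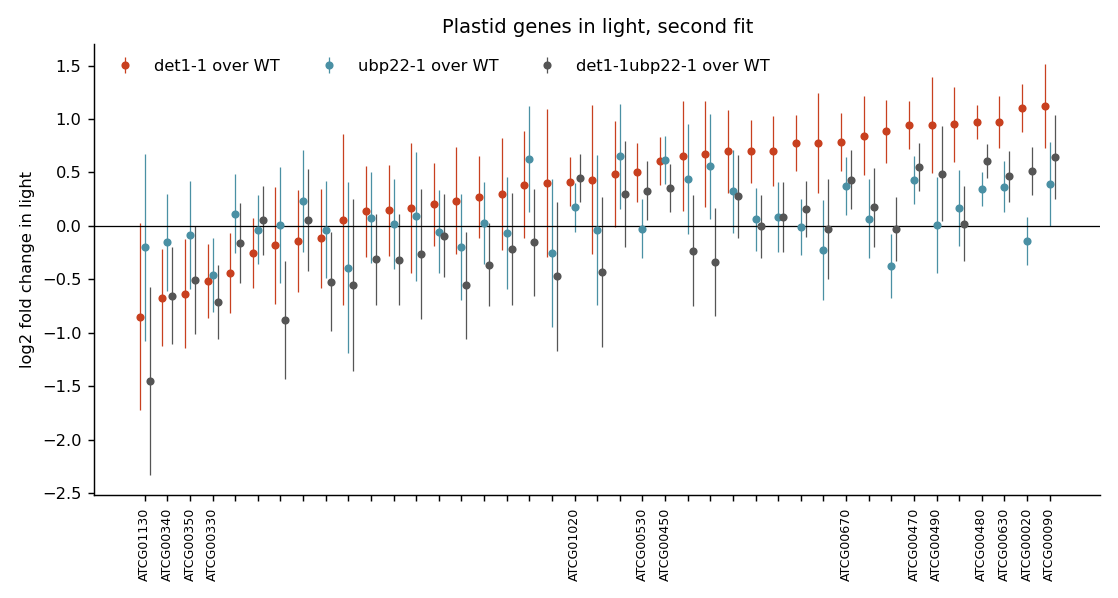
Log2 fold changes against WT in light of the 41 plastid genes with a mean of at least 50 normalised counts in the second fit, for the single mutants *det1-1* (red) and *ubp22-1* (blue) and for the double mutant (grey). Bars are 1 SE, genes are sorted by their value in *det1-1*, and some of those named in the text are labelled. The medians are 0.43, 0.03 and -0.03, and ATCG00020 at 1.11 in *det1-1* is the only gene called.

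In the second fit the share of all normalised counts in light was 0.0370% for the plastid in WT, 0.0469% in *det1-1*, 0.0386% in *ubp22-1* and 0.0365% in *det1-1ubp22-1*. The mitochondrial shares were 0.0198%, 0.0203%, 0.0200% and 0.0142%. Relative to WT, the mitochondrial share of the double mutant was the lowest, and these shares carry no test.

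Nuclear genes that encode the transcription and decay machinery of the organelles were listed beside the members. Sigma factors, which guide the bacterial-type plastid polymerase, were called higher in light in WT for 5 of 6 genes, where 20.9% of all genes were, and for 5 of 6 in *det1-1* over WT in darkness, where 14.4% were. All 6 lay above 0 in both comparisons, the lowest at 0.45 and 0.85. *SIGE* had 165 counts in WT (D) and 2934 in WT (L), a log2 fold change of 4.15 (SE 0.26), and was higher in *det1-1* (D) by 4.25. Of the 12 polymerase-associated proteins 4 rose in WT light and 4 in *det1-1* (D), where *FLN1*, a fructokinase-like protein of the plastid polymerase complex, was higher by 3.01. The 2 phage-type polymerase genes with a symbol in the reference, *MGP3* (mitochondrial) and *SCA3* (plastid), rose in *det1-1* (D), by 1.97 and 1.65. Of all genes 14.4% rose in that comparison. *MGP3* rose in WT light by 1.31, where 20.9% of all genes rose. Another listed gene of this kind had no symbol and was left out. Of the 3 genes for RNA decay enzymes that were used, *EMB2730* fell in WT light (-1.03), where 15.6% of all genes fell. No other call was made for them. None of the listed machinery genes was called in *ubp22-1* or *det1-1ubp22-1* against WT, where only 0.116% and 2.26% of all genes were. The sigma factor counts were thus higher in WT light, where most plastid counts were lower. Markers of green tissue (*RBCS1A*, *CAB2* and *CAB3*) moved in the same direction as the sigma factors in those 2 comparisons. All 3 rose in WT light (median 4.64 on the log2 scale), and all 3 rose in *det1-1* over WT in darkness (median 3.04). For light in *det1-1*, 1 of 3 markers and 2 of 6 sigma factors rose, where 15.7% of all genes did. In *det1-1* over WT in light, first fit, 1 of 3 markers fell and 1 of 6 sigma factors rose, where 1.01% of all genes fell and 2.20% rose. The part of these nuclear genes and of green tissue in the organelle counts was not tested.

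Checks on the labels bear on the genotype comparisons. *DET1* itself had 909 to 1758 normalised counts in the 4 groups of the first fit and does not mark the *det1-1* allele at this level. *UBP22* had 414 counts in WT and 8345 in the libraries labelled *ubp22-1*, 20.2-fold higher, and 4018 in those labelled *det1-1ubp22-1*, which is the opposite of a lower transcript level in an insertion line. The position of the reads within the gene is unknown. Seed storage transcripts (8 genes), a sign of seed-stage RNA, summed in the first fit to 62.1 counts in light and 704 in darkness for WT, and to 7939 and 730 for *det1-1*. In the second fit they summed to 53.3 in WT, 6797 in *det1-1*, 3413 in *ubp22-1* and 83.6 in the double mutant. These sums carry no test. By the call used above, 6 of the 8 genes rose in *det1-1* against WT in the second fit, where 2.33% of all genes rose. In *ubp22-1* 2 rose, where 0.0848% of all genes did. None was called in the double mutant against WT or against *det1-1*, where 2.26% and 0.0179% of all genes were. In the first fit none was called for light in WT, where 8151 of 22318 genes were. The part of these transcripts in the organelle counts was not tested.

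All calls above use a normal reference for the Wald statistic. With a t distribution of 4 degrees of freedom, none of the 61 calls of an organelle gene passed, while 3741 of 22318 genes did for light against darkness in WT and 897 for *det1-1* against WT in darkness. In the other 7 comparisons 0 genes of any genome passed with that distribution, so that the loss of organelle calls there is shared by all genes.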

How the data were processed

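Total RNA of 12 seedling libraries was poly(A)-enriched (stranded TruSeq), sequenced as single 50-base reads and, per the labels and methods, base-called with CASAVA 1.8, aligned to TAIR10 with STAR (up to 1000 places per read kept), counted with HTSeq and fitted with DESeq2 by the authors. The strand setting of the counting is not given in the sources used here. The 7 deposited tables hold a mean of normalised counts over 8 libraries (signal), a log2 fold change, its log2 standard error, a Wald score, a p-value and an adjusted p-value. The log2 fold changes are the authors' own comparisons. They are used because the tables hold nothing else for these genes, and each deposited p-value was replaced by one computed here.

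For each gene the two-sided Wald p was taken from the log2 fold change and its SE and adjusted by Benjamini-Hochberg over all genes of a table after 1 row of totals was dropped. The signs of darkness over light were turned. A call needs more than a 2-fold change together with an adjusted p below 0.01. Group means were solved from the mean and the fold changes, and the dispersion from the SEs under a negative binomial model with n = 2 and equal size factors. The interaction adds the variances of its comparisons, as does the double mutant against *det1-1*. The work was done in Python 3.11.15 with SciPy 1.17.1, NumPy 2.4.6, pandas 2.3.3 and, for the plots, matplotlib 3.10.9, and the code was tested on simulated data.

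The named members are those called, the most abundant, those with the smallest dispersion and those named by annotation notes. The members and gene lists were chosen with earlier results of these data known. Of 38 nuclear identifiers listed, 36 had a symbol in the reference and were used. Functional classes, ribosomal and transfer RNA, and symbols repeated in a genome could not be assigned to the AGI identifiers, so the planned groups by function and the alternatives that need them were not made. Results of a withheld item are not reported here. The mitochondrial sequence of TAIR10.1 may differ from the one the authors aligned to.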

Additional observations from a re-analysis of the deposited data

Results flagged for a closer look

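ATCG00220, a plastid gene with a mean of 15.1 normalised counts, was singled out because its *det1-1* effects in the 2 growth conditions differed, with an interaction (darkness minus light) of 3.63 on the log2 scale (SE 1.15, adjusted p = 0.0081 in the Wald test with Benjamini-Hochberg adjustment). The log2 fold change of *det1-1* against WT was 2.70 in darkness (5.42 counts in WT, 35.2 in *det1-1*) and -0.93 in light (12.8 and 6.75 counts). The light effect was 1.24 in WT and -2.38 in *det1-1*.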

How the results depend on the processing

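The 61 calls of an organelle gene in a comparison kept their direction and side of the threshold with an adjusted p of 0.05, with no fold threshold, with genes of a mean of at least 10 only and after recentring on the median of all genes, and all 60 that have a deposited adjusted p did so with it (the interaction has none). At an adjusted p of 0.05, 38 plastid genes were called for light against darkness in WT, 65 plastid and 13 mitochondrial genes in *det1-1*, 2 plastid genes in the interaction and 2 in *det1-1* against WT in the second fit. Of all genes 8688, 6709, 4103 and 1000 were called in these comparisons at that threshold. Without a fold threshold 4 plastid genes were called in that last comparison, where 2586 of 22400 genes were. In *det1-1ubp22-1* against WT 1 plastid gene was called in that setting, where 1678 of 22400 genes were. With a t distribution of 4 degrees of freedom, 0 organelle genes were called in every comparison. The second fit in place of the first gave 1 plastid gene for *det1-1* against WT in light. With the extra spread on the dark-grown libraries, an alternative chosen after seeing the data, 4 plastid and 0 mitochondrial genes were called in *det1-1* against WT in darkness. Of 22318 genes 5573 were called there, with the SEs of nuclear genes unchanged.

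Recentred on the median of the same organelle genome, the plastid genes listed above for this setting and 4 mitochondrial genes were called for light in WT. For light in *det1-1* 6 plastid and 0 mitochondrial genes were called, and 0 organelle genes in darkness, in the interaction and in the second fit. All these calls were higher than the rest of the genome, whereas the main calls for light were lower. Of 22318 genes, 8143, 6112, 5568 and 3494 were called for light in WT, light in *det1-1*, darkness and the interaction. 19 calls then changed sign by construction. In WT these were ATCG00070 (0.42), ATCG00090 (0.95), ATCG00550 (0.78), ATCG00560 (0.56), ATCG00580 (0.10), ATMG00160 (1.49) and ATMG00640 (0.18). In *det1-1* they were ATCG00070 (0.60), ATCG00090 (1.28), ATCG00210 (0.77), ATCG00220 (0.70), ATCG00550 (0.51), ATCG00560 (0.40), ATCG00570 (0.038), ATCG00580 (0.18), ATCG01020 (1.98), ATCG01120 (0.060), ATMG00060 (0.67) and ATMG00160 (1.03). Without the leading gene of each group, the dark-over-light ratio of the mitochondrial share was 10.5 in WT and 6.61 in *det1-1*, and that of the plastid share in *det1-1* 6.08. Without the 2 leading genes of each group, which are not the same plastid genes in every group, chosen after seeing the data, these were 5.72, 5.17 and 6.37.

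No paired analysis was possible because no value per library was held. For the same reason no fit without a replicate was made. Alternatives that need symbols for the AGI identifiers were not run. Depth per library is unknown.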
